A study of Mus musculus with 2 samples.

Results

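Bone morphogenetic proteins (BMPs) and the proteins that hold them back were examined in limb tissue of mouse embryos at embryonic day 10.5. The group comprised 10 genes, chosen by symbol and found by Ensembl identifier in the gene and transcript tables of both libraries, out of 43346 Ensembl gene rows. They were 5 ligands (Bmp2, Bmp4, Bmp5, Bmp7 and Gdf5), 4 secreted antagonists (Grem1, Nog, Chrd and Fst) and the membrane protein Bambi. All 10 were found. The tissue came from strain B6NCrl embryos of both sexes and was pooled: replicate 1 held limbs of 69 embryos and replicate 2 limbs of 51. Nothing in the labels records a treatment or an altered allele, and they do not say how forelimbs and hindlimbs were combined. Total RNA above 200 nt was sequenced from 10.0 ng per library. There was thus 1 group of 2 libraries and no contrast between conditions.

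BMP ligands are secreted as dimers cut from larger precursors, and they signal through paired serine/threonine kinase receptors to Smad1, Smad5 and Smad9. Secreted antagonists bind the ligands outside the cell and keep them from the receptors, while Bambi resembles a type I receptor without a kinase domain. In the limb bud, BMPs act in the apical ectodermal ridge, in death of the tissue between digits and in the forming skeleton. Gremlin 1, the product of Grem1, keeps BMP activity low in the mesenchyme beneath the ridge, which lets sonic hedgehog and the ridge FGFs sustain each other.

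The expected counts, estimates of reads per gene that are not always whole, summed to 38932257 over genes in replicate 1 and 42465764 in replicate 2. The limb label was checked against 8 limb mesenchyme markers, and 8 of 8 stood at 1 TPM (an abundance normalised to length and depth) or more in both libraries, led by Msx1 at 307 ± 5.86 TPM (± is the SD over n = 2 throughout). Notochord and neural tube markers, which would point to adjoining trunk, reached 1 TPM in both libraries in 0 of 3 and 0 of 5 cases. Noto and Nkx2-2 were at 0 in both libraries, but the notochord gene T was at 1.03 TPM in replicate 1 and 0.78 in replicate 2. Somite and sclerotome markers, also of the trunk, did reach 1 TPM in both libraries in 5 of 8 cases, led by Meox2 at 20.4 and 36.6 TPM. RNA of adjoining trunk thus cannot be told apart from that of the limb. Because each library is 1 pool of whole tissue, fewer cells of a type and less RNA per cell cannot be told apart. Nor can pool, library and any batch.

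The first question was which ligands and antagonists the tissue used. At 1 TPM or more in both libraries stood 7 of the 10 genes, against 55.2% of 21474 named protein-coding genes and 31.5% of all named genes. All 5 ligands and Bambi were among them, but only 1 of the 4 secreted antagonists, Grem1. Replicate 1 had 7 of the 10 genes at that level and replicate 2 had 9, Nog being the exception. The median over all 10, including those below 1 TPM, was 2.52 TPM in replicate 1 and 6.34 in replicate 2. The 11853 expressed protein-coding genes, at 1 TPM or more in both libraries, had medians of 19.9 and 22.4 TPM. That set leaves out low genes, so the medians are not like for like.

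Among the ligands, Bmp4 (ENSMUSG00000021835.10, chromosome 14, 46383520 to 46390669, minus strand), which the mesenchyme and the ridge both make, was at 64.4 TPM in replicate 1 and 59.7 in replicate 2. Its mean of 62.1 ± 3.32 exceeded 76.8% of expressed protein-coding genes. Bmp7 (ENSMUSG00000008999.7, chromosome 2, 172868012 to 172940321, minus strand), a ligand of a second subfamily, was at 32.8 and 26.2 TPM. These 2 genes supplied most ligand RNA: of the summed ligand TPM, Bmp4 held 62.3% and 58.3% and Bmp7 31.7% and 25.6% in replicates 1 and 2.

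The other ligands were low, and all 3 stood higher in replicate 2. Bmp2 (ENSMUSG00000027358.6, chromosome 2, 133552159 to 133562885, plus strand), the closest relative of Bmp4, was at 3.31 TPM in replicate 1 and 6.62 in replicate 2. Bmp5 (ENSMUSG00000032179.7, chromosome 9, 75775364 to 75900310, plus strand), which is related to Bmp7 and known for its part in skeletal shape, was at 1.73 and 3.09 TPM. Gdf5 (ENSMUSG00000038259.4, chromosome 2, 155941023 to 155945367, minus strand), a marker of forming joints, was at 1.15 and 6.81 TPM. Replicate 1 and replicate 2 did not overlap in the tables' TPM intervals for any of these 3 genes.

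The ligands form families by sequence, and this bears on whether reads of one could be counted for another. The last 120 coding bases before the stop codon are shown for each, in the part that encodes the end of the mature ligand, from GENCODE M21 transcripts on GRCm38, 5′ to 3′. Capitals mark bases that differ from Bmp4 at the same position. The positions are chr14:46383862-46383981, minus strand for Bmp4; chr2:133561593-133561712, plus strand for Bmp2; chr2:172870140-172870259, minus strand for Bmp7; chr9:75898460-75898579, plus strand for Bmp5; and chr2:155941546-155941665, minus strand for Gdf5. All lie in the last coding exon of their gene.
Bmp4: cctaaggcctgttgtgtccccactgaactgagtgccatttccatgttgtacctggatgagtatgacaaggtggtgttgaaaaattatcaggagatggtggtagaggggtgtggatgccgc
Bmp2: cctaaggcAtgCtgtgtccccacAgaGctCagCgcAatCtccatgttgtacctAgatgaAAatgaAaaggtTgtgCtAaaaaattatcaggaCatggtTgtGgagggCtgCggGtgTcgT
Bmp7: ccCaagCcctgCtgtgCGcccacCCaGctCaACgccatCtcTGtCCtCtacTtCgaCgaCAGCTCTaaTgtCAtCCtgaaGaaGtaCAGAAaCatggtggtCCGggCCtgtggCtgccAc
Bmp5: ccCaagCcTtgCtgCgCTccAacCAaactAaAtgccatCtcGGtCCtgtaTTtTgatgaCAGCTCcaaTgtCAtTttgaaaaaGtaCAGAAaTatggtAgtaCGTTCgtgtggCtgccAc
Gdf5: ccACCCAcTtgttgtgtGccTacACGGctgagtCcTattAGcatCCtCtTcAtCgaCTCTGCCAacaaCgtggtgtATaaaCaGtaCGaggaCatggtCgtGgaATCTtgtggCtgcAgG

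Bmp2 differed from Bmp4 at 23 of these 120 bases (80.8% identity), and Bmp5 differed from Bmp7 at 23 as well. Across the subfamilies identity was lower, with Bmp7 and Gdf5 each at 60.8% to Bmp4 and Bmp5 and Gdf5 lowest at 52.5%. The longest run of bases shared by whole transcripts of any 2 of the 10 genes was 28, between Bmp4 and Bmp7, and Bmp2 shared at most 16 with Bmp4. No 100-base window of Bmp2, Bmp4, Bmp7, Nog or Bambi occurred in another gene's M21 transcripts on either strand. Neither Bmp2 and Bmp4 nor Bmp5 and Bmp7 shared a window of that length with each other.

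The other members did share windows with other genes, for Bmp5, Gdf5, Chrd and Fst with a gene on the opposite strand, and whether counting used strand is not given in the sources used here. Gm26903, antisense to Bmp5, held 45.3% of the 100-base windows of Bmp5, and Gm15557, opposite Gdf5, held 37.9% of those of Gdf5. Both were listed with few reads of their own: Gm26903 with 0 and 3.48 expected counts, and Gm15557 with 3.68 and 5.55, beside 68.3 and 420 for Gdf5. Chrd shared 0.47% of windows with Thpo, Fst 0.97% with Gm47040, and Grem1 0.20% with 3 genes that do not overlap it. Gm47040 was not among the Ensembl gene rows of the libraries, so no reads could be listed for it. Within Bmp4, the antisense gene Gm15222 had 14.0 expected counts in each library.

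**Figure D1:**
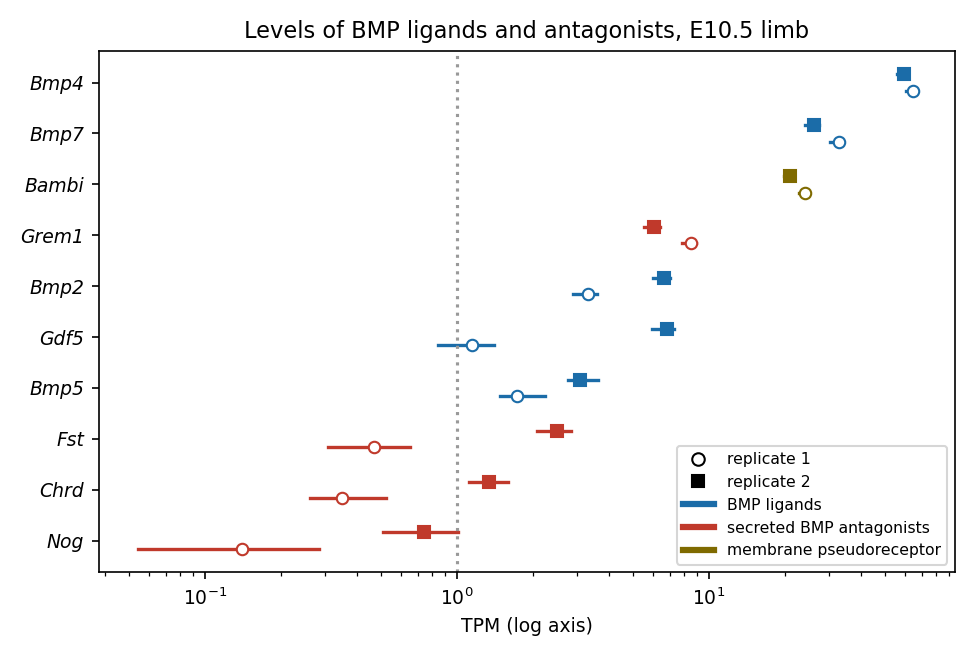
TPM (log axis) of the 10 genes in replicate 1 (open circles) and replicate 2 (filled squares), with the tables' TPM intervals as lines and a dotted line at 1 TPM. Bmp4, Bmp7 and Bambi stand highest in both libraries, while Gdf5, Fst, Chrd and Nog sit well to the left in replicate 1 and move right in replicate 2.

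Among the secreted antagonists, Grem1 (ENSMUSG00000074934.3, chromosome 2, 113746164 to 113758646, minus strand) was highest, at 8.53 TPM in replicate 1 and 6.06 in replicate 2. Follistatin, encoded by Fst (ENSMUSG00000021765.7, chromosome 13, 114452290 to 114458951, minus strand), binds activins more tightly than BMPs and was at 0.47 and 2.49 TPM. Fst, Chrd and Nog were all several times lower in replicate 1 than in replicate 2. Chordin, encoded by Chrd (ENSMUSG00000006958.9, chromosome 16, 20733127 to 20742384, plus strand), was at 0.35 and 1.34 TPM. Noggin, a strong antagonist of Bmp2 and Bmp4 encoded by the single-exon gene Nog (ENSMUSG00000048616.4, chromosome 11, 89300638 to 89302332, minus strand), was at 0.14 and 0.74 TPM. Nog rested on 6 and 33 expected counts, Chrd on 30 and 121 and Fst on 28 and 155, so their levels in replicate 1 are imprecise.

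Bambi (ENSMUSG00000024232.1, chromosome 18, 3507923 to 3516404, plus strand) was at 24.1 TPM in replicate 1 and 21.0 in replicate 2. In both libraries it stood above each of the 4 secreted antagonists of the group. It exceeded Grem1 2.83-fold and 3.46-fold. Its mean of 22.5 ± 2.24 TPM exceeded 51.6% of expressed protein-coding genes, beside 24.8% for Grem1.

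The summed levels of the 2 sides stayed close between libraries while their makeup differed. Ligand TPM summed to 103 in replicate 1 and 102 in replicate 2, and secreted antagonist TPM to 9.49 and 10.6. RNA of the 5 ligands thus exceeded that of the 4 secreted antagonists 10.9-fold and 9.63-fold (mean 10.3 ± 0.894). This ratio describes RNA of the whole tissue, not protein or any one cell. With Bambi counted among the antagonists the ratio was 3.16. The 19 further extracellular modulators described below, not all of them antagonists, were left out of it. They summed to 281 TPM in replicate 1 and 399 in replicate 2, so the ratio holds for these 4 antagonists only.

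Grem1 made up 89.9% of the summed TPM of the 4 secreted antagonists in replicate 1 but 57.0% in replicate 2. Fst held 4.95% and 23.4%, Chrd 3.69% and 12.6%, and Nog 1.48% and 6.96%. On the ligand side the shares of Gdf5 (1.11% and 6.65%), Bmp2 (3.20% and 6.46%) and Bmp5 (1.67% and 3.02%) were also larger in replicate 2. In both libraries Bmp4 and Bmp7 together kept the majority of ligand RNA.

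**Figure D2:**
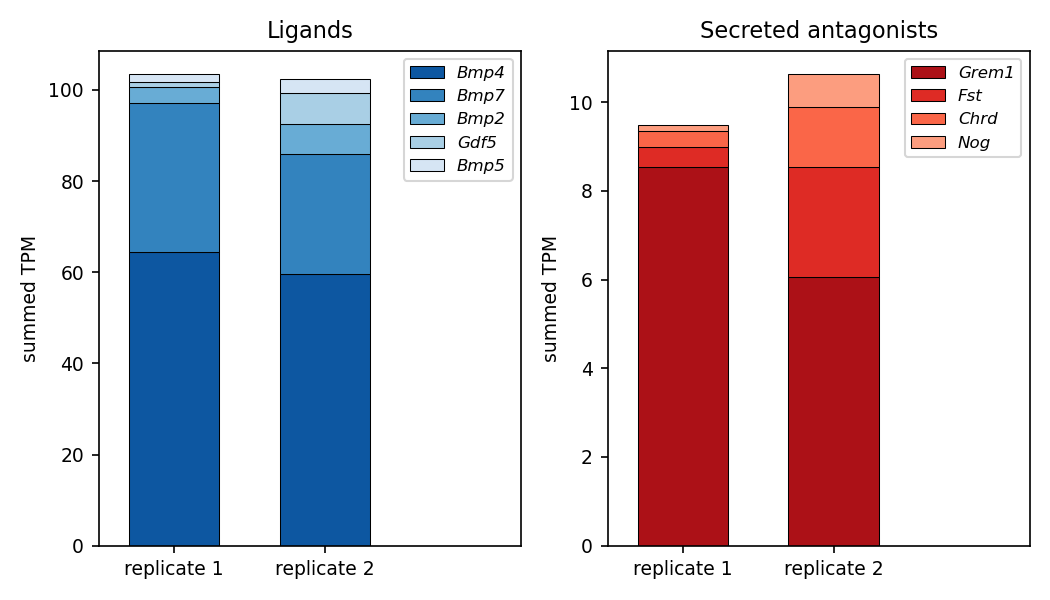
Summed TPM of the 5 ligands (left) and the 4 secreted antagonists (right) in each library, stacked by gene, on separate axes that start at 0. The bars are of like height in both libraries, but Grem1 fills 89.9% of the antagonist bar in replicate 1 and 57.0% in replicate 2.

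The order of the 10 genes by mean TPM was Bmp4, Bmp7, Bambi, Grem1, Bmp2, Gdf5, Bmp5, Fst, Chrd and Nog. A pair was called separate where one gene's TPM interval lay wholly above the other's in each of the libraries. The tables do not state the level of these intervals. Of 45 pairs, 38 were separate. Among the 9 neighbours in the order only 3 were: Bmp4 above Bmp7 (1.96-fold and 2.28-fold), Bmp7 above Bambi (1.36-fold and 1.25-fold) and Bambi above Grem1. From Grem1 downwards no neighbours were separate in both libraries.

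The ranks that changed between pools involved Gdf5 most often. Grem1 exceeded Gdf5 7.42-fold in replicate 1, while in replicate 2 their ratio was 0.89 and the intervals overlapped. Grem1 exceeded Bmp2 2.58-fold in replicate 1, and in replicate 2 the ratio was 0.92 with overlapping intervals. Gdf5 against Bmp5 was the one pair whose intervals were apart in opposite directions, with Bmp5 1.5-fold higher in replicate 1 and Gdf5 2.20-fold higher in replicate 2. By contrast, Bmp2 was separate from Bmp5 in both libraries, at 1.91-fold and 2.14-fold.

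The second question was how far the 2 pools differed. With 1 library a side no test applies: an exact two-sided sign-flip test cannot give a p below 0.5. Differences are therefore given as log2 CPM (counts scaled to library size) after TMM scaling, replicate 2 minus replicate 1, each with a 95% exact binomial interval that covers counting error only. All 10 genes averaged 10 or more expected counts. Of them, 4 were at least 2-fold higher in replicate 2, against 4.03% of 16860 genes, and 0 were at least 2-fold lower, against 1.48%. The median over the 10 was 0.78, beside 0.01 over all 16860.

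The 4 past 2-fold were Gdf5 and the antagonists Fst, Nog and Chrd. Gdf5 differed by 2.40 (2.06 to 2.82), or 5.27-fold, on a mean count above 100, where 1.31% of genes were at least 2-fold higher and 0.31% lower. The antagonists had mean counts between 10 and 100, where 11.3% of genes were at least 2-fold higher and 4.58% lower. Fst differed by 2.20 (1.68 to 2.91), Nog by 1.96 (0.99 to 3.81) and Chrd by 1.75 (1.23 to 2.44). On the log2(TPM + 1) scale, which shrinks low genes, Nog was at 0.61 and Chrd at 0.79, and only Gdf5 and Fst were past 2-fold.

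Bmp2 and Bmp5 differed less, by 0.86 (0.66 to 1.06) and 0.69 (0.43 to 0.97). Grem1 was the member lowest in replicate 2 relative to replicate 1, at -0.63 (-0.78 to -0.49). Bmp7, Bambi and Bmp4 were at -0.39 (-0.47 to -0.31), -0.34 (-0.41 to -0.27) and -0.30 (-0.37 to -0.23). On the log2(TPM + 1) scale Grem1 was at -0.433, Bmp7 at -0.316, Bambi at -0.195 and Bmp4 at -0.107. The TPM intervals of Bmp4 overlapped between libraries (60.37 to 66.26 and 55.64 to 61.4), whereas those of Grem1, Bmp7 and Bambi did not. Counting intervals lay above 0 for 6 of the 10 genes and below 0 for 4, against 27.2% and 26.2% of all genes. The shares were 18.6% and 8.64% at mean counts of 10 to 100, where Nog, Chrd and Fst lay above 0, and 30.4% and 32.8% at 100 or more, where 3 members lay above 0 and 4 below. The 4 lower genes were the 4 most abundant by mean TPM, and all 6 others were higher. In replicate 2 alone, Grem1 at 6.06 TPM stood below Gdf5 at 6.81 and Bmp2 at 6.62.

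Scaling to spike-in RNAs, which moves the median of all genes from 0.01 to 0.26, left every sign as it was. This scaling moves all genes by nearly the same amount, so their standing relative to the median could not change and is no further check. Under it Bmp4 was at -0.05, Bambi at -0.09, Bmp7 at -0.14 and Grem1 at -0.38. Counting intervals were not recomputed for it, so whether the values nearest 0 still exclude it was not tested. Bmp2 was then at 1.11, the fifth gene past 2-fold.

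**Figure D3:**
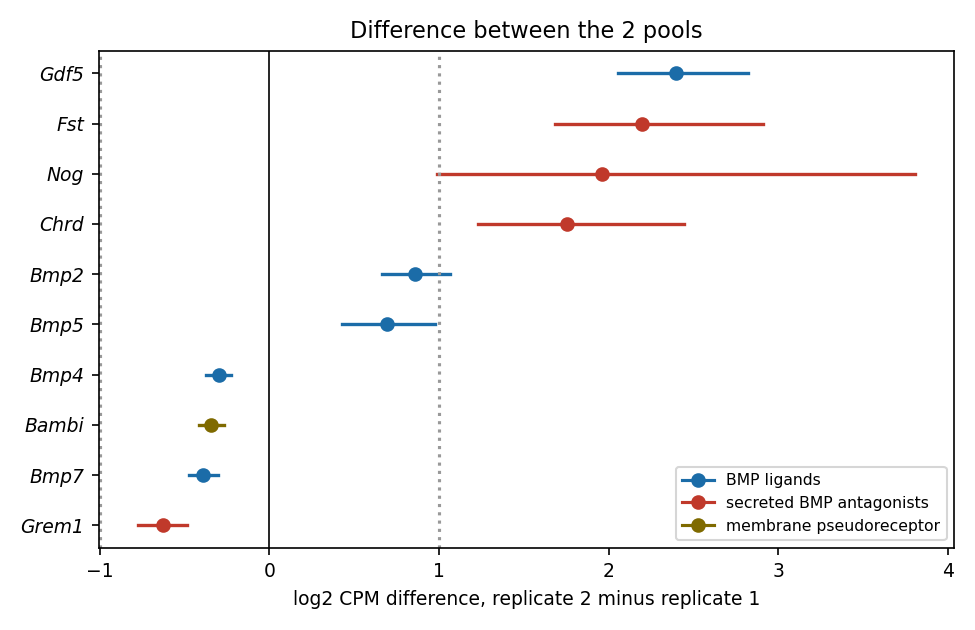
Log2 CPM difference between the pools (replicate 2 minus replicate 1) for the 10 genes, with 95% counting intervals as lines and dotted lines at 2-fold. Gdf5, Fst, Nog and Chrd lie past 2-fold, and Bmp4, Bambi, Bmp7 and Grem1 lie below 0 with intervals that do not reach it.

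**Figure D4:**
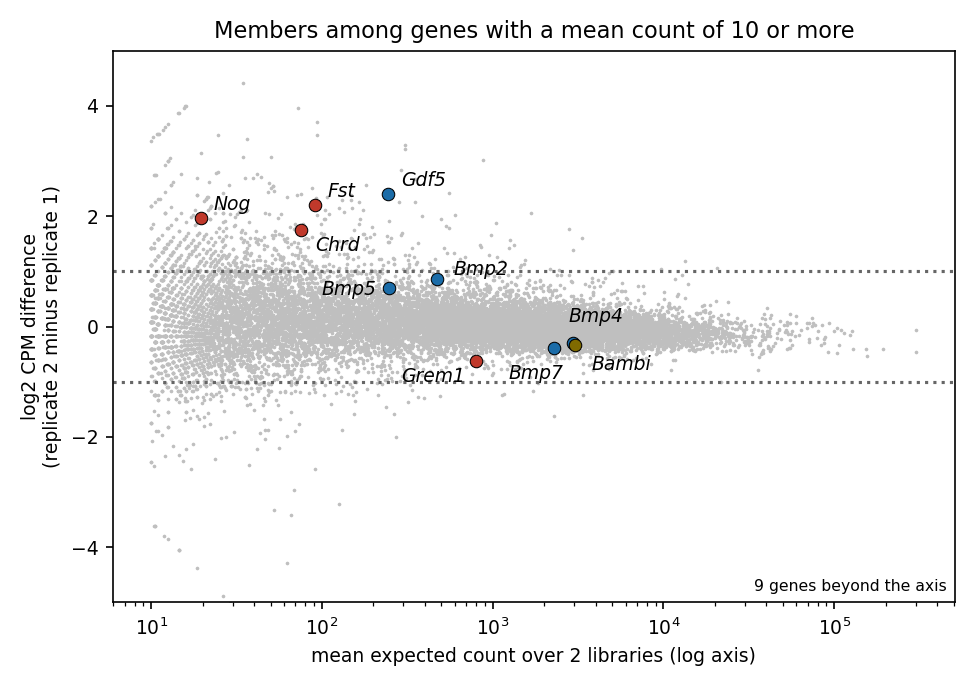
Log2 CPM difference against mean expected count (log axis) for the 16860 genes past the count filter (grey), with the 10 genes in colour (blue ligands, red secreted antagonists, ochre Bambi); 9 genes lie beyond the axis. Gdf5 stands above nearly all genes of like count, whereas Bmp4, Bmp7 and Bambi lie just below 0.

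Markers of other tissues and regions also differed between the pools. For comparison, 27.2% of all genes past the count filter had counting intervals above 0 and 26.2% below. At mean counts of 100 or more these shares were 30.4% and 32.8%. Of 10 cartilage markers past the count filter, 9 had counting intervals above 0 and 1 below, and the list summed to 229 TPM in replicate 1 and 483 in replicate 2. Its main collagen Col2a1 differed by 1.18 (1.14 to 1.22) and a second collagen, Col9a2, by 3.23 (2.86 to 3.71), and its member Matn1 was at 0 in replicate 1. Somite and sclerotome markers summed to 66.7 and 107 TPM, with 5 of 8 intervals above 0 and 1 below, and Pax9 at 2.05 (1.59 to 2.65). Distal limb and hindlimb lists summed to 123 and 148 TPM and to 114 and 226 TPM, with intervals above 0 for 3 of 5 (2 below) and 4 of 5 genes, Hoxa13 at 2.25 (1.97 to 2.58) and Hoxc10 at 1.13 (1.02 to 1.25). Muscle precursor markers summed to 32.5 and 60.3 TPM, with 4 of 6 above 0 and 2 below and Myod1 at 3.28 (2.91 to 3.78).

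Ridge markers went the other way. They summed to 118 TPM in replicate 1 and 94.1 in replicate 2, most of it Fgf8 at 88.5 and 65.9 TPM. Of the 8 intervals 5 lay below 0 and 1 above, beside 26.2% and 27.2% of all genes. Surface ectoderm markers were mixed: they summed to 180 and 191 TPM, with 5 of 9 below and 3 above. The keratin gene Krt15 was at 2.11 (1.73 to 2.58), near the values of Fst and Nog, and Krt18 at -0.70 (-0.81 to -0.58). Erythroid markers were lower and summed to 11730 and 9553 TPM, with 5 of 6 below. The part of any of these tissues in the differences of the 10 genes was not tested.

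The loop that Gremlin 1 serves was followed through a list of 11 genes, though 2 libraries cannot tell whether its partners vary with Grem1. Of the 11, 7 had counting intervals below 0 and 1 above, beside 26.2% and 27.2% of all genes. At mean counts of 100 or more the shares of all genes were 32.8% and 30.4%. The median log2 difference of the list was -0.24. Shh, the signal of the posterior mesenchyme, was at 1.07 TPM in replicate 1 and 0.69 in replicate 2. Its difference of -0.74 (-1.31 to -0.23) rested on 74.0 and 49.7 expected counts and is imprecise. The ridge ligand Fgf4 was at 2.70 and 1.29 TPM, a difference of -1.19 (-1.56 to -0.86), and was the 1 gene of the list at least 2-fold lower.

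Other members of the loop were less uniform. Fgf4, Fgf8, Fgf9 and Fgf17 also stand in the ridge list, so the results of both lists are not independent. Fgf8, the main ridge ligand, differed by -0.54 (-0.63 to -0.44) and Fgf10, its mesenchymal partner, by -0.73 (-0.84 to -0.63). Fgf9, a further ridge ligand, was higher at 0.98 (0.70 to 1.30). The hedgehog receptor and target Ptch1 was at -0.10 (-0.19 to -0.02), and Gli1, a second target, at -0.24 (-0.38 to -0.10). Fmn1, whose gene lies 29396 bases from Grem1 and harbours limb enhancers of it, was at -0.07 (-0.31 to 0.17), where Grem1 itself was at -0.63.

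Most receptor and Smad genes were expressed at 1 TPM or more in both libraries, as were 55.2% of named protein-coding genes. All 7 receptor genes were expressed, led by Acvr2b, a type II receptor shared with activins, at 58.4 ± 9.53 TPM and the type I receptor Bmpr1a at 43.5 ± 7.76. Of the 7 receptors 0 were past 2-fold. At mean counts of 100 or more, 1.31% of all genes were at least 2-fold higher and 0.31% lower, so the receptor count is near these shares. Receptor differences ran from -0.47 for Acvr2b to 0.50 for Bmpr1b, a type I receptor of cartilage condensations that Gdf5 prefers. Of 6 Smad genes 5 were expressed, led by Smad5 at 39.5 ± 6.24 TPM and Smad1 at 30.1 ± 1.70. The other, Smad9, was at 0.19 TPM in replicate 1 and 0.23 in replicate 2. Smad differences ran from -0.07 to 0.43, the latter for the inhibitory Smad7.

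Most response genes of the pathway were abundant. All 6 were expressed, beside 55.2% of named protein-coding genes, led by Id3 at 356 ± 61.0 TPM and Msx1. Past 2-fold were 0 of 6, near the shares of all genes at mean counts of 100 or more (1.31% higher and 0.31% lower). Intervals of the 6 lay above 0 in 5 cases and below in 1, Msx1, at -0.18 (-0.21 to -0.15). Of all genes past the count filter, 27.2% had intervals above 0 and 26.2% below. Id4, low at 2.11 TPM in replicate 1 and 4.57 in replicate 2, differed most, by 0.96 (0.60 to 1.35). The Id genes, Msx1 and Msx2 are targets of other signals too.

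Further extracellular modulators were numerous and mostly higher in replicate 2. Of 19 such genes 12 were expressed, led by Fstl1, a secreted glycoprotein related in name to follistatin, at 158 ± 33.8 TPM and Twsg1, a chordin partner, at 75.4 ± 14.3. Both stood above each of the 4 secreted antagonists. Of the 15 past the count filter, 11 had intervals above 0 and 0 below, beside 27.2% and 26.2% of all genes, and 3 were at least 2-fold higher, beside 4.03%. Bmper, a secreted BMP-binding protein, differed by 2.08 (1.66 to 2.62), between the values of Fst and Nog. The list's median difference was 0.38, beside 1.86 for the 4 secreted antagonists. Of those 4, Grem1, the most abundant, was at -0.63, and together they summed to 9.49 TPM in replicate 1 and 10.6 in replicate 2.

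Transcript tables showed which forms the genes used. The 10 genes had 17 transcripts in the tables, and 6 genes had a single one, so that nothing can be said of their forms. Bmp4 had 2 coding transcripts with the same coding exons, one of 2064 nt and one of 1633 nt, whose annotated starts lie 119 bases apart. The longer form held 80.5% of Bmp4 TPM in replicate 1 and 68.9% in replicate 2, and the shorter 10.2% and 20.7%. The TPM intervals of the longer form did not overlap between libraries (47.1 to 54.4 and 37.0 to 44.6), whereas those of the shorter did (2.58 to 10.5 and 7.10 to 15.97). Both coding forms together kept 90.7% and 89.6%.

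Transcripts with a retained intron took the rest of Bmp4 and a larger part of Bmp7. Such a form of 517 nt held 9.31% and 10.4% of Bmp4 TPM. One of 980 nt held 29.1% and 23.5% of Bmp7 TPM, beside 70.9% and 76.5% for the coding form. Such short transcripts weigh more in TPM than in reads, since by expected counts the 980 nt form of Bmp7 held 9.19% and 7.04%. Counting coding transcripts alone, Bmp7 stood at 21.7 TPM in place of 29.5. The main coding transcript of Chrd, of 23 exons, held 96.6% and 93.2% of Chrd TPM, but 63.2% and 74.8% by the posterior mean, so on so few reads the forms of Chrd are poorly resolved.

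**Figure D5:**
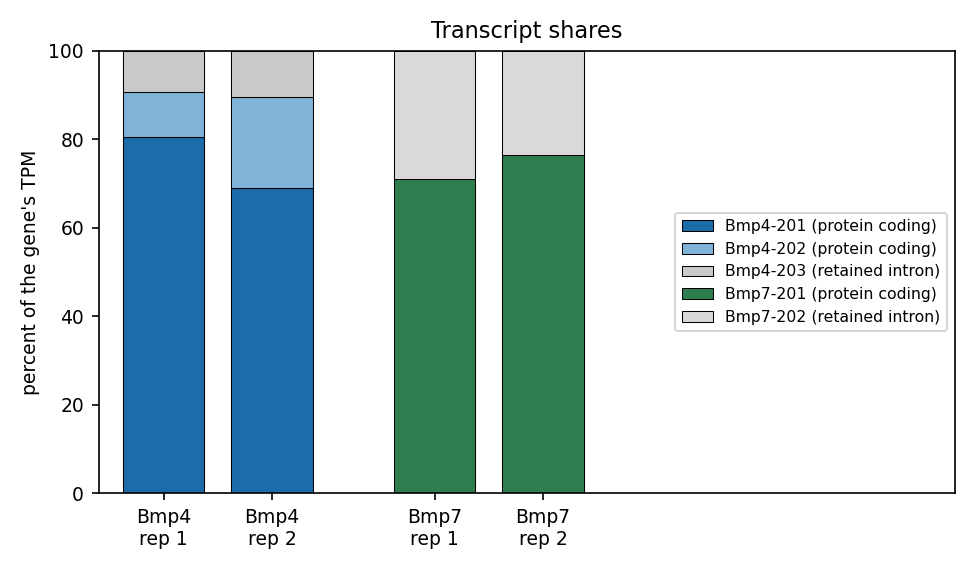
Share of each gene's TPM held by its transcripts in replicates 1 and 2, for Bmp4 (left pair) and Bmp7 (right pair), stacked to 100 percent. The shorter coding form of Bmp4 (light blue) takes 10.2% in replicate 1 and 20.7% in replicate 2, and the retained-intron form of Bmp7 (grey) takes 29.1% and 23.5%.

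Promoter sequence from RefSeq (GRCm38.p6) matched 4 of the 10 genes: Bmp4, Bmp5, Chrd and Grem1. The 250 bases before the start site are shown for Chrd and Bmp5, higher in replicate 2, and for Grem1, lower there, 5′ to 3′ with CpG dinucleotides in capitals. They lie at chr16:20732877-20733126, plus strand for Chrd; chr2:113758649-113758898, minus strand for Grem1; and chr9:75775115-75775364, plus strand for Bmp5.
Chrd: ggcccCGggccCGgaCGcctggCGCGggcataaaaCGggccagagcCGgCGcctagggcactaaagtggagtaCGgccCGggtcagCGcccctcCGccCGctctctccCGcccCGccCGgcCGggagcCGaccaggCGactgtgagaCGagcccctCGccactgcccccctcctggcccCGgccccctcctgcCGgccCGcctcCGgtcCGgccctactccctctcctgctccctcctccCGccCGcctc
Grem1: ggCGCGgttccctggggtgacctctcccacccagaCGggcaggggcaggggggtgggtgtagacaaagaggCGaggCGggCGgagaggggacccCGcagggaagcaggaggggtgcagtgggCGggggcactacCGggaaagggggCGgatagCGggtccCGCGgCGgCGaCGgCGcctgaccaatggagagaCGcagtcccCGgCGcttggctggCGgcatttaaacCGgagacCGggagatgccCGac
Bmp5: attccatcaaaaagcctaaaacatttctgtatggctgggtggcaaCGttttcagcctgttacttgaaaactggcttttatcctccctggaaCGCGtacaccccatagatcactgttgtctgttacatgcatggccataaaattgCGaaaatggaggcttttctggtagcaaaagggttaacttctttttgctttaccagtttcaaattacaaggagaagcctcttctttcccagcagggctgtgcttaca

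CpG content followed neither level nor direction in these 4 genes. Chrd held 28 CpG and Grem1 24, more than 92.4% and 88.0% of 32851 promoter rows, although Chrd was higher and Grem1 lower in replicate 2. Bmp4, the most abundant of the 10, held 11, and Bmp5 held 4, against a median of 6. The letters GGCGCC, which occur in Smad1/5 binding elements, were searched on both strands and occurred before Chrd and Grem1 and in 9.59% of all rows. The Gli letters GACCACCCA (0.23% of rows) and TATAAA (12.37%) were in none of the 4 windows, which says nothing of the factors that bind elsewhere.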

How the data were processed

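Total RNA was measured in 2 libraries of pooled limb tissue. Per the labels and the sample text files, reads aligned to the mm10 transcriptome (GENCODE M4) gave the deposited tables; the strand setting, aligner and quantifier are not stated there. The authors deposited expected counts (estimated, not whole), TPM scaled over every row, spike-ins included, posterior mean TPM, and a percent of the gene's TPM per transcript. The bounds of TPM intervals, treated as a score, are also the authors' deposited values.

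Names, coordinates and transcript sequences came from GENCODE M21 on GRCm38, which named 42462 of 43346 Ensembl rows. Transcript lengths matched the tables except for Fst (2337 against 1851 bases) and Bambi (5040 against 5074). Spike-ins (3.89% and 3.45% of counts) and 26249 other rows stayed out of library sizes. Expected counts were rounded for edgeR 4.0.16 (R 4.3.3): TMM scaling and log2 CPM with a prior count of 2. DESeq2 1.42.0 gave the other size factors. The script was tested on simulated data. Python 3.11.15, pandas 2.3.3, numpy 2.4.6, scipy 1.17.1 and matplotlib 3.10.9 did the rest. Depth per library was 40509328 and 43983028 counts with spike-ins and 38932257 and 42465764 over genes; reads without molecular identifiers are not independent molecules, so intervals cover counting error only.

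Members and lists were chosen with earlier results of these data known. Genes that could be named were the members, the 2 highest genes and the gene with the largest difference of each pathway list, the highest gene and the gene with the largest difference of each marker list, any gene of the Gremlin loop list, overlapping genes, and transcripts with 5% or more of their gene's TPM. Noto, Nkx2-2 and Matn1 were named after their values were seen, for being at 0, and values of Smad9 were given for being below 1 TPM. Other scalings, prior counts, filters, TPM forms and single libraries were tried.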

Additional observations from a re-analysis of the deposited data

How the results depend on the processing

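No paired analysis was possible because there is 1 group. Of 60 other estimates of the members' log2 differences, 45 stayed within the counting interval and 15 moved beyond it, with 0 changes of sign. The count of members at least 2-fold higher in replicate 2 was 4 and became 2 with log2(TPM + 1) and 1 at a mean count of 100 or more, where fewer members remain, and 5 with spike-in scaling. The number of separate neighbours in the order was 3 in both libraries jointly and 6 to 7 in single libraries, each in its own order. The TPM ratio of the 5 ligands to the 4 secreted antagonists was 10.3. It was 8.91 with coding transcripts only, 12.02 without Fst and 3.16 with Bambi among the antagonists. In single libraries it ran from 9.63 to 10.9. Members expressed were 5 at a threshold of 2 TPM. Separate pairs and neighbours were not run for coding transcripts only, since the gene intervals cover all transcripts. Nog, with 6 counts in replicate 1, is limited most by depth.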

Other observations

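A list of 9 other BMP and GDF ligands, which does not hold Gdf11, was mostly low. Of the 9 genes 1 was expressed at 1 TPM or more in both libraries, Gdf6, a relative of Gdf5 that also marks joints, at 1.51 ± 0.191 TPM, and its difference between the pools was 0.12 (-0.23 to 0.47), beside 2.40 for Gdf5. Bmp3, a ligand known to oppose the others in bone, was at 0.42 and 0.90 TPM, with a difference of 0.91 (0.34 to 1.57). The 9 genes summed to 2.5 TPM in replicate 1 and 3.35 in replicate 2.

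A list of ligands that follistatin binds outside the BMP family, with inhibin subunit genes, was led by Gdf11, which patterns the trunk axis. Gdf11 was at 13.5 TPM and 13.6 TPM. Next in the list was the inhibin subunit gene Inha, which is not itself such a ligand, at 2.79 ± 1.05. Gdf11 differed by -0.13 (-0.24 to -0.03), where Fst differed by 2.20. The activin subunit gene Inhba rested on 5 and 16 counts, with a difference of 1.20 (-0.03 to 3.28).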
